A study of Homo sapiens with 6 samples.

Results

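A list of 59 genes of DNA replication, from the origin recognition complex to the E2F transcription factors, was followed in BE(2)-C, an MYCN-amplified human neuroblastoma line. The genes were chosen by name for their role in replication, and all 59 were present among the 13885 genes of the authors' deposited table. This list, the other gene lists and the promoter words searched below were chosen with earlier results of these data known. Their counts beside those of all genes are therefore descriptions and no blind comparisons. One group of 3 samples had been transfected with a scrambled siRNA (siScramble) and the other group of 3 with an siRNA against PCIF1 (siPCIF1), for 24 h in both cases. All 6 samples, whose genotype is labelled WT, were then kept for 4 days in 10 µM all-trans retinoic acid (ATRA), which drives these cells towards a more neuronal form, and no group without ATRA was analysed here. PCIF1 is the methyltransferase that makes m6Am next to the cap of mRNAs that start with adenosine. A single siRNA against PCIF1 and a single line were used. The labels do not say whether the samples of a group were separate cultures, and p-values therefore cover the spread between these samples alone.

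The authors' deposited table gives a DESeq2 comparison of the groups with the mean over all 6 samples, and values of single samples were not analysed here. Its header does not state the direction. Fold changes are given here as siPCIF1 over siScramble because PCIF1, at -0.82 (SE 0.19) according to the authors' deposited table, is then lower with its siRNA. In the table's name siScramble comes before siPCIF1, and if read plainly in that order every sign below would turn.

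DNA replication is prepared in G1, when the origin recognition complex, CDC6 and CDT1 load the ring of MCM2 to MCM7 onto origins. This step, called licensing, is blocked by geminin (GMNN) once S phase has begun. In S phase the kinase CDC7 with DBF4, and cyclin-dependent kinases, turn the ring into the active CMG helicase by adding CDC45 and the GINS complex, and polymerases alpha, delta and epsilon then copy the strands with the clamp PCNA and its loader RFC. Many of these genes are transcribed at the G1 to S transition through E2F factors, and differentiating neuroblasts leave the cell cycle. In bulk RNA, a change in the share of cells in S phase and a change of RNA per cell cannot be told apart.

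Words of the E2F consensus stood in the promoters of 28 of the 53 replication genes that could be searched. The genes had not been chosen by these words, but genes and words were both chosen with earlier results of these data known. These 53 of the 59 genes had RefSeq promoter windows on GRCh38.p14 of 250 bases before and 50 after an annotated start; MCM4, MCM5, GINS4, POLD3, RPA2 and RPA3 did not. Both strands were searched for 4 words of the E2F binding consensus, TTTCCCGC, TTTCGCGC, TTTGCCGC and TTTGGCGC, which can overlap each other on opposite strands. The share of 52.8% compares with 9 of 39 further replication genes with a window (23.1%), 3 of 24 mitosis genes (12.5%), 653 of the 9831 genes of the table with a window (6.64%) and 3.31% of all windows. No word was common to the list, and 25 of the 53 genes held none of the 4. The windows below, of 30 bases each and written 5′ to 3′ on the strand of the gene, hold the word nearest to an annotated start, in capitals. They are shown for 6 genes that rose by at least 0.8 on the log2 scale, for 2 that fell and for MCM7, which did not pass, to show the same words beside different changes.
CLSPN (higher, chr1:35769965-35769994, minus strand): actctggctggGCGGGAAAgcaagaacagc
MCM6 (higher, chr2:135876513-135876542, minus strand): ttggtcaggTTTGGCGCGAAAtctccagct
UHRF1 (higher, chr19:4909476-4909505, plus strand): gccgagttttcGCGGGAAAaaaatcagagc
CDC7 (higher, chr1:91501067-91501096, plus strand): tccgacctgcgGCGGGAAAgtcgcgcgcct
MCM8 (higher, chr20:5950667-5950696, plus strand): ggatcactgaaGCGCCAAAaaagaatttag
PCNA (higher, chr20:5126663-5126692, minus strand): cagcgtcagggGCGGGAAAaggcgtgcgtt
CDC6 (lower, chr17:40287875-40287904, plus strand): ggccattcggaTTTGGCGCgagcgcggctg
TYMS (lower, chr18:657603-657632, plus strand): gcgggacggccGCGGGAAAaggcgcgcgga
MCM7 (not passed, chr7:100101388-100101417, minus strand): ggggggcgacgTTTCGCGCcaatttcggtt
In MCM6 2 words on opposite strands overlapped into TTTGGCGCGAAA. A match describes these letters only and was not tested as a binding site.

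More replication genes rose than fell with siPCIF1. In the authors' deposited table, 24 of the 59 passed a DESeq2 adjusted p of 0.05 as higher (40.7%), against 16.3% of all genes, and 3 passed as lower (5.08%), against 17.7% of all genes. The other 32 did not pass, where 34.0% of all genes passed in either direction. The median log2 fold change of the list was 0.29, against 0.0059 for all genes of the authors' deposited table, and 44 of the 59 values were above 0. All 8 changes of at least 0.8 that passed were increases, where 4.59% of all genes were that much higher and 5.73% that much lower as given in the authors' deposited table. The 8 were CLSPN, MCM6, UHRF1, CDC7, MCM8, MCM10, MCM4 and PCNA. They were also the 8 members that passed a test against an absolute log2 change of 0.3, which 1260 of the 13885 genes passed in either direction. These calls depend on the spread taken as the null. With the DESeq2 Wald statistics divided by their robust SD of 2.44 over all genes, 0 members passed (8 higher and 0 lower at an unadjusted p of 0.05), where 135 genes of the table did. That SD would also take in real changes and any table-wide trend, so the division assumes that most genes were unchanged.

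**Figure D1:**
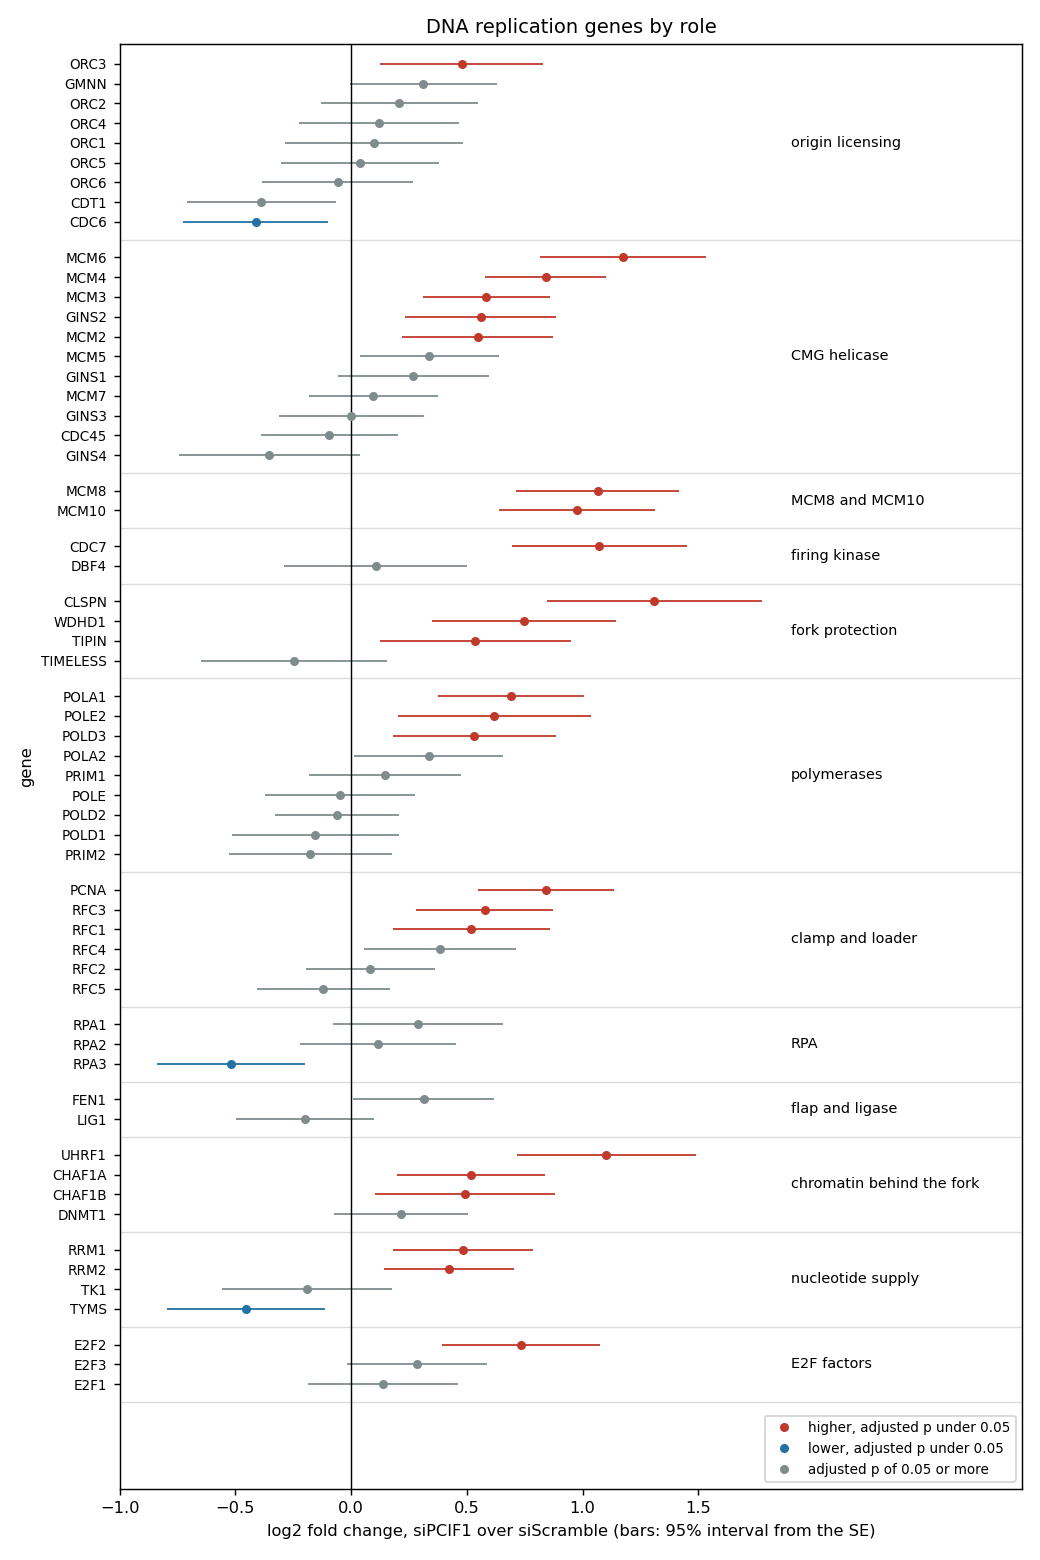
The log2 fold change (siPCIF1 over siScramble, x axis) of each of the 59 replication genes (y axis), grouped by role, with its 95% interval from the deposited SE; colours mark the DESeq2 adjusted p. The 24 red genes lie to the right of 0 and the 3 blue ones, CDC6, RPA3 and TYMS, to its left.

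Like most genes of the table, origin licensing genes mostly did not pass. Of the 9, 1 was higher (11.1%, against 16.3% of all genes) and 1 lower (11.1%, against 17.7%). Among the 6 subunits of the origin recognition complex, which marks origins, ORC3 rose by 0.48 (SE 0.18, DESeq2 adjusted p = 0.0269) per the authors' deposited table, a call lost at 0.26 once the table-wide trend with GC content described further on was removed. The others ran from -0.06 for ORC6 to 0.21 for ORC2 according to the authors' deposited table, short of passing. ORC1, its largest subunit, was at 0.10 (SE 0.20) as given in the authors' deposited table, at a mean normalised count of 90.5. CDC6, the loader that brings the MCM ring to the complex, fell to 75.1% of the siScramble level (95% interval 60.5 to 93.2%), a log2 fold change of -0.41 (SE 0.16, DESeq2 adjusted p = 0.0313) per the authors' deposited table. CDT1, its partner in loading, was at -0.39 (SE 0.16) with a DESeq2 adjusted p of 0.0521 according to the authors' deposited table, just short of passing. GMNN, the inhibitor of CDT1, was at 0.31 (SE 0.16, DESeq2 adjusted p = 0.125) as given in the authors' deposited table.

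All 6 genes of the MCM ring had positive values, and 4 of them rose (66.7%, against 16.3% of all genes). MCM6 was at 1.17 (SE 0.18) or 225% of the siScramble level (95% interval 176 to 289%), with a DESeq2 adjusted p of 5.88e-09 per the authors' deposited table (ENSG00000076003.4; GRCh38 chromosome 2, 135839626 to 135876426). MCM4 followed at 0.84 (SE 0.13, DESeq2 adjusted p = 9.34e-09; chromosome 8, 47960185 to 47978160) according to the authors' deposited table. MCM3 at 0.58 (SE 0.14) and MCM2 at 0.55 (SE 0.17) rose less, with DESeq2 adjusted p-values of 0.000267 and 0.00501 as given in the authors' deposited table. The other subunits of the ring had lower values. MCM5 was at 0.34 (SE 0.15, DESeq2 adjusted p = 0.0714) and MCM7 at 0.10 (SE 0.14, DESeq2 adjusted p = 0.645) per the authors' deposited table. The 95% interval of MCM6, 0.81 to 1.53, lay above that of MCM7, -0.18 to 0.37, according to the authors' deposited table; the difference between the 2 genes was not tested.

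RNA levels within the ring were uneven too. Its protein subunits are joined in equal numbers, which does not require equal RNA levels, and protein was not measured here. Per kb of the main transcript, MCM7 had a mean normalised count of 753 as given in the authors' deposited table, and MCM2, MCM3, MCM4 and MCM5 had 350, 388, 295 and 334. MCM6 had 54.3 per kb, the lowest level of the 6 beside the largest fold change. The annotation behind the counts was not given in the sources used here, so these levels rest on a transcript length that the counting may not have used, and whether reads of MCM6 were lost in the counting was not tested. Over all 59 genes the mean count and the log2 fold change had a Spearman correlation of -0.10 across genes, which share the same 6 libraries, and -0.11 over all annotated genes of the authors' deposited table.

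**Figure D2:**
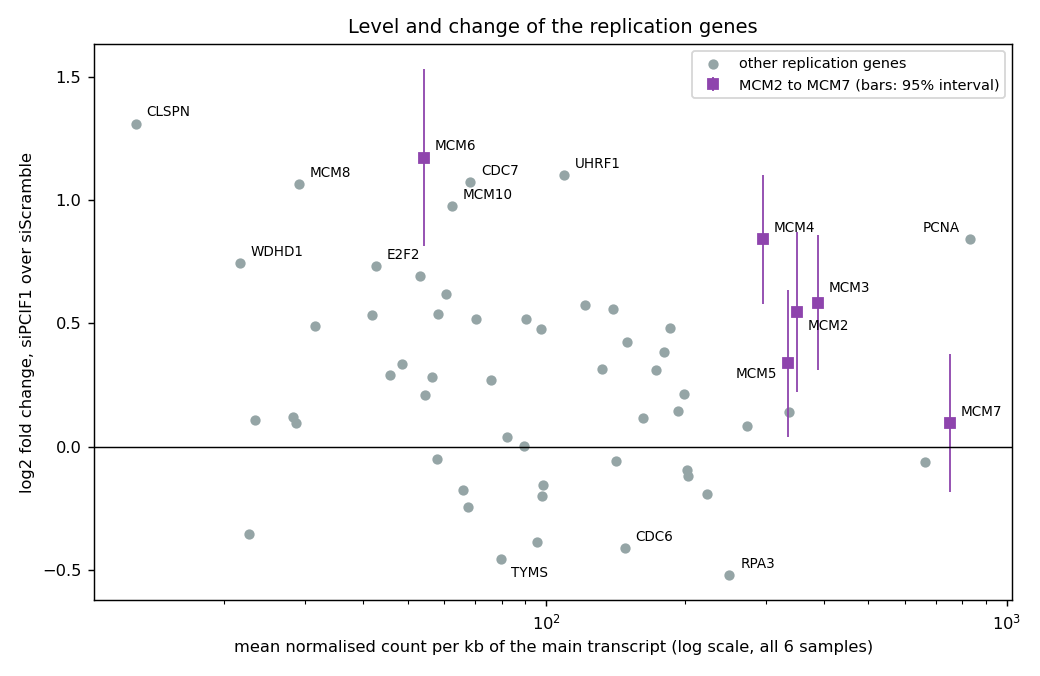
Mean normalised count per kb of the main transcript over all 6 samples (x axis, log scale) against the log2 fold change (y axis) of the 59 replication genes; squares with 95% intervals are MCM2 to MCM7. MCM6 sits at 54.3 per kb and 1.17, and MCM7 at 753 per kb and 0.10.

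Among the genes that complete the helicase, CDC45 and the 4 GINS genes, 1 passed, as higher (20%, against 16.3% of all genes). GINS2 rose, at 0.56 (SE 0.17, DESeq2 adjusted p = 0.00396) per the authors' deposited table. CDC45 was at -0.09 (SE 0.15), GINS1 at 0.27 (SE 0.17), GINS3 at 0.0014 (SE 0.16) and GINS4 at -0.35 (SE 0.20) according to the authors' deposited table, and none of these 4 passed. The median was 0.57 for the ring and 0.0014 for CDC45 and GINS as given in the authors' deposited table. GINS4 had a mean normalised count of 87.1, the lowest of the helicase genes, and its interval reached from -0.74 to 0.04 per the authors' deposited table.

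MCM8 and MCM10, which are no subunits of the ring, both rose. MCM8, which acts with MCM9 in homologous recombination, was at 1.06 (SE 0.18), 209% of the siScramble level (95% interval 164 to 267%), with a DESeq2 adjusted p of 8.51e-08 according to the authors' deposited table (chromosome 20, 5950652 to 5998977). MCM10, which helps to activate the helicase, was at 0.98 (SE 0.17, DESeq2 adjusted p = 2.9e-07; chromosome 10, 13161554 to 13211104) as given in the authors' deposited table. The kinase that fires origins was split. Its catalytic subunit CDC7 was at 1.07 (SE 0.19), 210% of the siScramble level (95% interval 162 to 274%), with a DESeq2 adjusted p of 6.58e-07 per the authors' deposited table (chromosome 1, 91500893 to 91525764). DBF4, the regulatory subunit that the kinase needs for its activity, was at 0.11 (SE 0.20, DESeq2 adjusted p = 0.724) according to the authors' deposited table. The interval of DBF4, -0.29 to 0.50, lay below that of CDC7, 0.69 to 1.45, as given in the authors' deposited table, and the difference itself was not tested.

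The list's largest fold change was that of CLSPN, which encodes claspin, the adaptor that passes the signal of a stalled fork from ATR to CHK1. CLSPN was at 1.31 (SE 0.24), 248% of the siScramble level (95% interval 180 to 342%), with a DESeq2 adjusted p of 1.12e-06 per the authors' deposited table (ENSG00000092853.13; chromosome 1, 35720218 to 35769967). It was also the least abundant of the 59, with a mean normalised count of 53.5 (12.8 per kb), and had the largest SE of the list. Estimated without the shrinkage described under the processing, its change was 1.61 and that of MCM6 1.31. WDHD1, the link between the helicase and polymerase alpha, rose by 0.75 (SE 0.20, DESeq2 adjusted p = 0.00158) according to the authors' deposited table. Of the pair of proteins that steady the fork, TIPIN rose by 0.54 (SE 0.21, DESeq2 adjusted p = 0.0347), whereas TIMELESS was at -0.24 (SE 0.20, DESeq2 adjusted p = 0.376), as given in the authors' deposited table. With the trend removed, CLSPN alone of these 4 genes passed, and TIPIN was at 0.37 (adjusted p from the DESeq2 SE 0.200).

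Of the 9 polymerase genes, 3 rose (33.3%, against 16.3% of all genes) and 0 fell (against 17.7%) at a DESeq2 adjusted p of 0.05. Also 0 were lower at an unadjusted p of 0.05, and 1 riser belonged to each polymerase. POLA1, the catalytic subunit of polymerase alpha, which makes primers together with primase, was at 0.69 (SE 0.16, DESeq2 adjusted p = 0.000164) per the authors' deposited table. POLE2, a small subunit of the leading-strand polymerase epsilon, was at 0.62 (SE 0.21, DESeq2 adjusted p = 0.0148) and POLD3, an accessory subunit of polymerase delta, at 0.53 (SE 0.18, DESeq2 adjusted p = 0.013), according to the authors' deposited table. The catalytic subunits of the latter enzymes did not pass: POLE was at -0.05 (SE 0.17) and POLD1 at -0.15 (SE 0.18) as given in the authors' deposited table. POLD2 was at -0.06 (SE 0.14), POLA2 at 0.34 (SE 0.16), and the primase genes PRIM1 and PRIM2 at 0.15 (SE 0.17) and -0.18 (SE 0.18), per the authors' deposited table; none of these passed. With the trend removed, 2 polymerase genes were higher, POLA1 and POLA2, both of polymerase alpha. POLE2 at 0.46 (adjusted p from the DESeq2 SE 0.0986) and POLD3 at 0.35 (0.144) then did not pass.

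PCNA, the sliding clamp that holds the polymerases on DNA, rose to 179% of the siScramble level (95% interval 146 to 220%). Its log2 fold change was 0.84 (SE 0.15), with a DESeq2 adjusted p of 4.45e-07, according to the authors' deposited table (chromosome 20, 5114953 to 5126626). With 834 mean normalised counts per kb it had the highest level of the 59. Of the 5 subunits of its loader, RFC3 rose by 0.58 (SE 0.15, DESeq2 adjusted p = 0.000913) and RFC1, the largest, by 0.52 (SE 0.17, DESeq2 adjusted p = 0.0115), as given in the authors' deposited table. RFC4 was at 0.38 (SE 0.17, DESeq2 adjusted p = 0.0604), RFC2 at 0.08 (SE 0.14) and RFC5 at -0.12 (SE 0.15) per the authors' deposited table, short of passing. No subunit of the loader passed with the trend removed, whereas PCNA did.

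RPA, the trimer that coats single-stranded DNA, held the largest decrease of the list. RPA3, its smallest subunit, fell to 69.7% of the siScramble level (95% interval 55.9 to 87.0%), at -0.52 (SE 0.16) with a DESeq2 adjusted p of 0.0066 according to the authors' deposited table (chromosome 7, 7636518 to 7718607). RPA1 and RPA2 were at 0.29 (SE 0.19) and 0.12 (SE 0.17) as given in the authors' deposited table, short of passing. FEN1, the nuclease that trims Okazaki fragments, and LIG1, the ligase that joins them, were at 0.31 (SE 0.16, DESeq2 adjusted p = 0.105) and -0.20 (SE 0.15, DESeq2 adjusted p = 0.323) per the authors' deposited table.

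Genes that restore chromatin behind the fork rose in 3 of 4 cases (75%, against 16.3% of all genes). UHRF1, which reads hemimethylated DNA and recruits the maintenance methyltransferase DNMT1, was at 1.10 (SE 0.20), 215% of the siScramble level (95% interval 164 to 281%), with a DESeq2 adjusted p of 5.73e-07 according to the authors' deposited table (chromosome 19, 4903080 to 4962154). DNMT1 itself was at 0.22 (SE 0.15, DESeq2 adjusted p = 0.268) as given in the authors' deposited table. CHAF1A and CHAF1B, subunits of the chaperone that deposits histones on new DNA, rose by 0.52 (SE 0.16, DESeq2 adjusted p = 0.00703) and 0.49 (SE 0.20, DESeq2 adjusted p = 0.0414) per the authors' deposited table. They thus stood at 143% and 141% of the siScramble level. CHAF1B did not pass with the trend removed, at 0.42 (adjusted p from the DESeq2 SE 0.103), which left 2 of the 4 genes higher.

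Nucleotide supply went both ways. The subunits of ribonucleotide reductase, which makes deoxynucleotides, rose together: RRM1 was at 0.48 (SE 0.15, DESeq2 adjusted p = 0.00796) and RRM2 at 0.42 (SE 0.14, DESeq2 adjusted p = 0.0127) according to the authors' deposited table. The genes of thymidylate supply did not rise. TYMS, which makes thymidylate from deoxyuridylate, fell to 73.0% of the siScramble level (95% interval 57.6 to 92.4%), at -0.45 (SE 0.17, DESeq2 adjusted p = 0.0303) as given in the authors' deposited table (chromosome 18, 657604 to 673578). TK1, the thymidine kinase of the salvage route, was at -0.19 (SE 0.19, DESeq2 adjusted p = 0.461) per the authors' deposited table. With the trend removed none of these 4 genes passed, with RRM1 at an adjusted p (from the DESeq2 SE) of 0.0559 and TYMS at 0.0733.

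Of the 3 activating E2F factors, which transcribe many genes of this list, E2F2 rose by 0.73 (SE 0.18), or to 166% of the siScramble level, with a DESeq2 adjusted p of 0.000252 according to the authors' deposited table. E2F1 was at 0.14 (SE 0.16, DESeq2 adjusted p = 0.554) and E2F3 at 0.28 (SE 0.15, DESeq2 adjusted p = 0.145) as given in the authors' deposited table. E2F1 was the most abundant of the 3 by length, with 336 mean normalised counts per kb against 42.7 for E2F2 and 56.5 for E2F3.

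A miss of the threshold did not show that a gene was unchanged. Of the 32 replication genes that did not pass, 15 had a 95% interval within 0.5 of 0 on the log2 scale, among them MCM7, CDC45, GINS3, POLE and POLD2. The other 17 had an interval that reached further than 0.5 from 0 per the authors' deposited table, among them CDT1, MCM5, GINS4 and TIMELESS.

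E2F words stood in the promoters of genes that rose, fell and did not pass. They were in 15 of the 22 risers with a window (68.2%), in both fallers with a window, CDC6 and TYMS, and in 11 of the 29 genes that did not pass (37.9%); the shares were not tested against each other. The 28 genes with a word had a median log2 fold change of 0.51 and the 25 without 0.12 according to the authors' deposited table, and the ranges overlapped, from -0.45 to 1.31 and from -0.24 to 0.98. MCM10, the highest of the genes without a word, and TYMS, the lowest with one, mark that overlap. Of the 4 words TTTCCCGC was the most frequent, in 14 genes, followed by TTTGGCGC in 11, TTTCGCGC in 7 and TTTGCCGC in 1.

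PCIF1 methylates mRNAs that start with adenosine, so the first base of the main GENCODE transcript was tallied. It was A in 13 of the 59 genes, against 28.6% of the 11790 protein-coding genes of the table. Of those 13, CDC7 and E2F2 rose (15.4%, against 18.0% of the protein-coding genes with A) and RPA3 fell (7.69% against 17.8%), with a median log2 fold change of 0.12 as given in the authors' deposited table. The other 46 held 22 risers (47.8%, against 17.0% of the protein-coding genes with another base) and 2 fallers (4.35% against 19.3%) and had a median of 0.32 per the authors' deposited table. Over the protein-coding genes of the table the medians were 0.01 with A and -0.01 with another base. Start sites and the methylation of these mRNAs were not measured here, and many of these genes have several annotated starts.

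GC-rich transcripts tended to be lower throughout the table, and the replication genes were read against that trend. Across all 13877 annotated genes the GC content of the main transcript and the log2 fold change had a Spearman correlation of -0.42 according to the authors' deposited table, and across the 59 replication genes of -0.30; genes are no independent replicates. In the 30 replication genes with a GC content of 47.2% or less, 16 rose and 2 fell, with a median of 0.45 as given in the authors' deposited table. In the 29 above it, 8 rose and 1 fell, with a median of 0.12 per the authors' deposited table. All annotated genes, in bins of GC content, differed in the same direction. Bins with a median GC content below 47.2% had median log2 fold changes from 0.37 to 0.05, and the others from 0.02 to -0.29. Risers and fallers among all genes were not counted by GC content, so the counts above have no matched comparison. With the trend in GC content, transcript length and mean expression removed from all genes, the medians of these GC-poor and GC-rich genes of the list were 0.30 and 0.26.

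With the trend removed, 18 replication genes were higher (10.8% of all genes were) and 2 lower (13.9% of all genes), with a median of 0.28; the adjusted p-values used the DESeq2 SEs. Of the 27 genes called in the authors' deposited table, 16 were called again in the same direction. The 8 large increases were among them, from 0.79 for MCM8 to 1.29 for UHRF1. The ring then ran from 0.35 to 1.01, in place of 0.10 to 1.17 as given in the authors' deposited table. MCM5 passed at 0.53 (adjusted p from the DESeq2 SE 0.00389), MCM7 was at 0.35 (adjusted p from the DESeq2 SE 0.051), and MCM2 moved to 0.76. E2F1 at 0.43, FEN1 at 0.45 and POLA2 at 0.41 passed as well. The 11 calls that were lost were those of ORC3, TIPIN, POLE2, POLD3 and CHAF1B, given above, and of WDHD1 at 0.37, RFC1 at 0.31, RFC3 at 0.36, RRM1 at 0.38, RRM2 at 0.28 and TYMS at -0.40. CDC6 at -0.49 and RPA3 at -0.52 still passed as lower. The source of the trend was not tested.

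**Figure D3:**
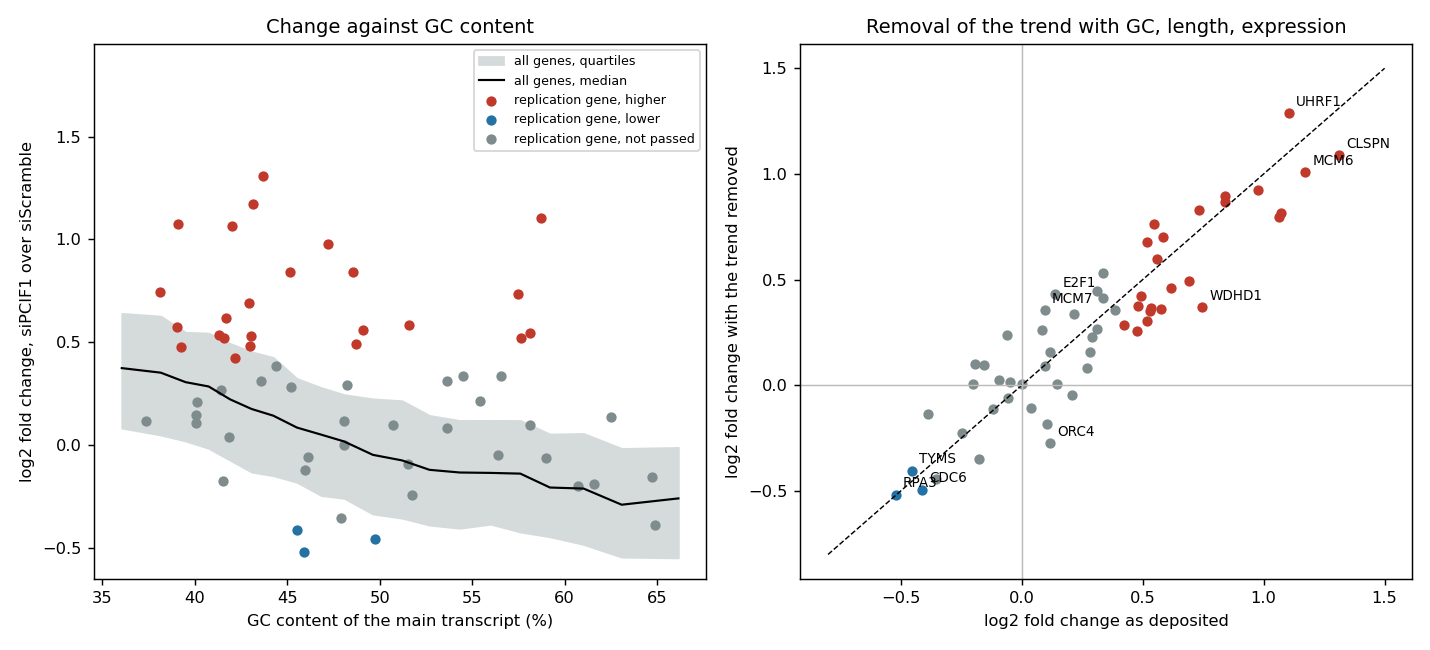
Left, GC content of the main transcript (x axis, %) against the log2 fold change (y axis), with the median and quartiles of all genes in 20 bins of GC content and each replication gene as a point. Right, the deposited log2 fold change (x axis) against the value with the trend removed (y axis), where the dashed line marks equality; UHRF1 lies above it at 1.29 and WDHD1 below it at 0.37.

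Among further genes of replication and its control, too, more rose than fell. Genes that promote replication and genes that restrain it, such as RB1, which rose, were counted alike. Of 50 such genes on a second list, 49 were measured, of which 14 were higher (28.6%, against 16.3% of all genes) and 3 lower (6.12% against 17.7%) at a DESeq2 adjusted p of 0.05, with a median of 0.15 per the authors' deposited table. With the trend removed 8 of the 49 were higher (10.8% of all genes were) and 3 lower (13.9% of all genes), and the median was 0.07. RIF1, which sets the timing of origins, had the largest increase that passed, at 1.15 (SE 0.18, DESeq2 adjusted p = 8.75e-09), and DTYMK, the thymidylate kinase, the largest decrease, at -0.81 (SE 0.17, DESeq2 adjusted p = 2.21e-05), according to the authors' deposited table. Both DTYMK and TYMS, which fell, act in thymidylate supply.

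Mitosis genes went the other way in the same comparison. The 30 measured genes cover the spindle, kinetochore and mitotic exit, and the list also holds CCNA2, CDK1, MKI67 and TOP2A. Of the 30, 0 were higher and 23 lower (76.7%, against 17.7% of all genes) at a DESeq2 adjusted p of 0.05 (also 0 higher at an unadjusted p of 0.05). Their median was -0.79 against 0.29 for the replication genes as given in the authors' deposited table. The lowest of the 59, RPA3 at -0.52, lay above that median per the authors' deposited table, whereas DTYMK of the second list lay below it. With the trend removed the medians were -0.97 and 0.28. TOP2A is on the mitosis list and on the second replication list. Whether these gene groups differ by the share of cells in each phase was not tested.

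**Figure D4:**
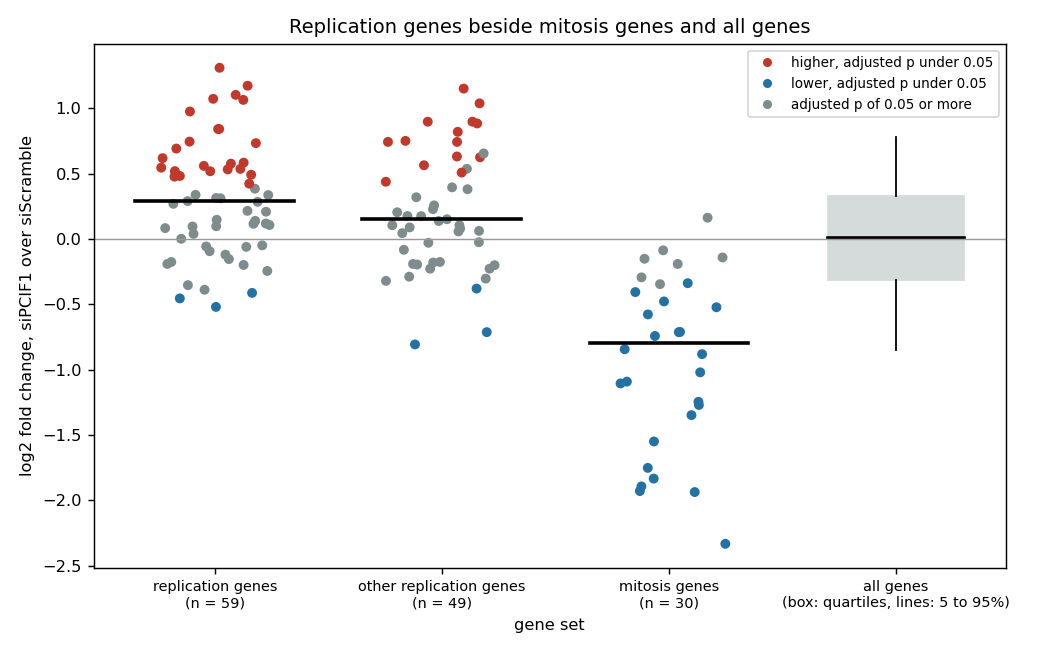
Log2 fold changes (y axis) of the 59 replication genes, 49 further replication genes and 30 mitosis genes, with the median of each as a bar and colours for the DESeq2 adjusted p, beside the quartiles and the 5 to 95% range of all 13885 genes. The medians are 0.29, 0.15 and -0.79, against 0.0059 for all genes.

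Some values rest on reads that annotation cannot assign to 1 gene. TYMS shares 39.1% of its exon bases with ENOSF1 on the opposite strand, which was at -0.13 (DESeq2 adjusted p = 0.651) according to the authors' deposited table. The sources used here do not give the strand setting of the counts, so reads of this pair may not have been told apart. Overlaps on the same strand, which no strand setting resolves, were largest for POLA2 (AP000944.2, 35.1% of its exon bases), TIPIN (RPL9P25, 21.0%), RRM2 (AC007240.1, 20.2%) and PRIM1 (AC117378.1, 14.9%), and none of these partners is among the genes of the table. On the opposite strand, MCM2 shares 22.7% of its exon bases with AC023593.1 and GINS4 shares 21.2% with AC009630.2, antisense genes outside the table, and GINS3 10.9% with AC009118.2. Smaller overlaps with genes of the table on the opposite strand touch RPA3 (UMAD1, 3.65% of the exon bases), MCM7 (AP4M1, 8.94%) and FEN1 (TMEM258, 6.70%). PCNA, RRM2 and RPA2 have 3 named pseudogenes each in GENCODE and TYMS has 2, and such copies can take reads.

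The line matched its label by its markers. All 10 adrenergic neuroblastoma markers, such as PHOX2A, HAND2 and DBH, were listed among the genes of the authors' deposited table. Of 12 markers of immune, epithelial, endothelial and fibroblast cells 5 were listed, with mean normalised counts of 13.9 to 138. CD14 was the 1 of these that passed, at 0.90 per the authors' deposited table. Their part in the results was not tested.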

How the data were processed

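RNA of 6 samples of BE(2)-C cells, 3 per group, was made into poly(A)-selected stranded libraries, per the labels' protocols. STAR 2.7.10a, HTSeq and DESeq2 on hg38, besides bcl2fastq 2.20, cutadapt 3.7 and deepTools, are named without settings in the submitters' processing notes. The annotation and strand setting behind the counts were not given in the sources used here. The authors' deposited table holds, per the file headers, 6 columns for 13885 genes: the mean normalised count of the 6 samples (a signal), the log2 fold change and its SE as log2 values, the Wald statistic (a score), and the p-value and adjusted p-value. The deposited adjusted p-values equalled a Benjamini-Hochberg adjustment over all listed genes. Depth per library is unknown, and the SE gives the precision, 0.133 to 0.236 in the 59 genes.

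Identifiers were matched without version to GENCODE 29 on GRCh38 (13877 of 13885), the source of symbols, coordinates, and the length, GC content and first base of the main transcript (ranked by APPRIS, basic tag, support level and length). Promoters came from RefSeq on GRCh38.p14. A gene rose or fell where the DESeq2 adjusted p of the authors' deposited table was under 0.05; 5998 genes had an unadjusted p under 0.05. Intervals of 95% are the log2 fold change ± 1.96 SE. The SE stopped at 0.295, as under shrinkage with a normal prior, which the header does not state; values without shrinkage assume that prior. The trend was a least-squares fit of the log2 fold change on linear and squared GC content, log2 transcript length and log2 mean. Alternatives were other thresholds, a minimum mean of 100, a test against 0.3, centring, removal of the trend, division by the robust SD and no shrinkage. All members of the list were described; the 59 genes, the other lists and the E2F words were chosen with earlier results of these data known. The Benjamini-Hochberg adjustment, the removal of the trend and the estimate without shrinkage were tested on simulated data, the other steps were not. The simulation set the spread of unchanged genes to the SE and used a known prior, and neither is known for these data. Python 3.11.15 with numpy 2.4.6, pandas 2.3.3, scipy 1.17.1 and matplotlib 3.10.9 was used.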

Additional observations from a re-analysis of the deposited data

How the results depend on the processing

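The count of 24 higher replication genes lay between 17 and 27 at adjusted p thresholds of 0.01 and 0.1, with genes of a mean of at least 100, after centring, with the trend removed and without shrinkage. It was 8 in the test against a log2 change of 0.3, which 1260 of the 13885 genes passed in either direction. It was 0 with the Wald statistics divided by their robust SD, where 135 genes passed. The count of 3 lower genes was 1 at a threshold of 0.01 and 0 in the test against 0.3 (0 at an unadjusted p of 0.05) and after division by the robust SD, and 2 to 4 under the other settings; CDT1 passed as lower after centring (adjusted p from the DESeq2 values 0.0484) and with the minimum mean of 100 (0.044). The median ran from 0.28 to 0.33 over the 8 settings. The thresholds, the test against 0.3 and division by the robust SD leave fold changes as they are, so the median of 0.29 could not move there. Centring lowers all values by 0.0059. The setting without shrinkage kept the deposited adjusted p-values, so its counts could not move. Removing the trend turned the sign of 10 genes that had not passed and did not pass then: ORC2 at -0.047, ORC4 at -0.27, ORC5 at -0.11, DBF4 at -0.18, CDC45 at 0.024, POLD1 at 0.094, POLD2 at 0.24, POLE at 0.014, LIG1 at 0.0055 and TK1 at 0.10. Centring turned GINS3 to -0.0045. For thresholds and the test against 0.3 the construction gives the cause; for the others the cause was not tested. No paired analysis was possible because the table holds no values of single samples, and for the same reason no replicate could be left out. Low counts limit CLSPN, GINS4, ORC1 and DBF4, with means under 100.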
